A study of Homo sapiens with 15 samples.

Results

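The genes described here copy DNA and supply its building blocks. They are 53 listed genes of origin licensing, helicase activation, the replication fork, nucleotide synthesis, control of the G1/S transition and the copying of chromatin, out of 19775 genes on the array. All 53 were matched by gene symbol, and for each gene the probe set brightest on average over the 15 arrays was taken. RNA came from Caco-2, a colon carcinoma line of human origin, kept non-differentiated and treated for 24 h in serum-free medium. A single array each came from medium alone, from 100 mM NaCl and from 5 mM butyrate, which gut bacteria release when they ferment fibre. The other 12 arrays came from cells given 10% by volume of cell-free fluid from a colon simulator, run for 48 h with 0%, 1% or 2% of the soluble fibre polydextrose. Each concentration has 4 arrays, 1 for each connected vessel: vessel 1 stands for the ascending colon, vessel 2 for the transverse colon, vessel 3 for the descending colon and vessel 4 for the sigmoid colon and rectum. Every array is 1 culture of 1 cell line and no repeat of a simulation is listed, so a difference between concentrations cannot be told apart from a difference between simulations, and p-values measure only the spread among these arrays.

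Before S phase, the origin recognition complex, CDC6 and CDT1 load the MCM helicase onto DNA, and a kinase step with CDC45 and GINS then turns it into a working helicase. At the fork, primase and DNA polymerases copy both strands, held in place by the PCNA clamp, while ribonucleotide reductase and thymidylate synthase supply the nucleotides. Many of these genes are textbook targets of E2F transcription factors, which are released when cells pass from G1 into S phase, and dividing gut epithelial cells express them more than differentiated ones. In RNA from a whole culture, fewer cells in S phase and less RNA per cell cannot be told apart.

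The deposited values were alike in scale. The median over 8496 bright genes, those that reached log2 6 in 1 or more of the 15 arrays, lay within -0.01 to 0.06 of medium in every array. All arrays have nearly the same distribution of values as processed, so these medians cannot show whether most genes shifted together. Of 12 matched markers of intestinal epithelium, EPCAM, KRT8, KRT18, KRT19, CDH1 and CDH17 were above log2 5 in all arrays, and VIL1, CDX1, CDX2, LGALS4, ALPI and SI were under log2 5 in all, so the epithelial keratins and adhesion genes were above this limit while villin, the CDX factors and the enterocyte enzymes, also used to mark the labelled cell type, were under it. The markers of leukocytes (5 of 5) and endothelium (3 of 3) were under log2 5 in all arrays, as were 6 of 7 fibroblast markers. The exception, COL1A1, was 1.37 in medium, 3.29 with NaCl, 8.13 with butyrate and 5.26 to 8.26 in the fluids. The ACTB probe sets, whose 3′ minus 5′ signal tracks RNA quality, gave 0.951 for medium, 0.641 for NaCl, 0.585 for butyrate and 0.366 to 0.924 in the fluids.

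The promoters of the members hold E2F sequence words more often than promoters at large. In RefSeq promoters (build GRCh38.p14, 250 bases before to 50 after the start site), 23 of 46 members with an entry held TTTCCCGC, TTTGGCGC, TTTCGCGC or TTTGCCGC on either strand. The same words were in 908 of 27305 promoters, or 3.33%. The CCAAT word was in 24 of the 46 (52.2% against 35.7% of all promoters), and TTTGAA, the cell cycle homology region, in 2 (4.35% against 15.4%), both counted on either strand. The words of the list can overlap, and a match describes the letters only. MCM4, MCM5, GINS4, RPA2, RPA3, CCNE2 and E2F8 are named only. The stretches below were chosen among members whose promoter holds an E2F word. The E2F words are in capitals and the gene's own strand is written 5′ to 3′. RRM2, DBF4, CDC45 and ORC1, which have a promoter entry, held no such word. TYMS lies on the + strand at chr18:657584-657651, RFC3 on the + strand at chr13:33818064-33818131, UHRF1 on the + strand at chr19:4909457-4909500 and CDT1 on the + strand at chr16:88803724-88803788. CDC25A lies on the - strand at chr3:48188424-48188491, MCM3 on the - strand at chr6:52284879-52284946, MCM6 on the - strand at chr2:135876492-135876625, PCNA on the - strand at chr20:5126644-5126711 and GINS2 on the - strand at chr16:85688955-85689015. All of these stretches end before the start site.
TYMS: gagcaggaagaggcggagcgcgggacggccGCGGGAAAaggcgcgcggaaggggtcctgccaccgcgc
RFC3: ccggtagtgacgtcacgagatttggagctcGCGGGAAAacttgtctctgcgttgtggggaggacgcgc
UHRF1: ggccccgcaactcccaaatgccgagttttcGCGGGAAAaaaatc
CDT1: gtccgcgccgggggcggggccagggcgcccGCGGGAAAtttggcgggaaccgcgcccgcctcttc
PCNA: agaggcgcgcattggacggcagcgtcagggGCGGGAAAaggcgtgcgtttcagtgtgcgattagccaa
GINS2: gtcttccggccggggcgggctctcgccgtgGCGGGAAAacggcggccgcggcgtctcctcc
CDC25A: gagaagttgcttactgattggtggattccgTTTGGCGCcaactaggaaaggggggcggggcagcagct
MCM3: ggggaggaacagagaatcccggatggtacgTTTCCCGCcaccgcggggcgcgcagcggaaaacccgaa
MCM6: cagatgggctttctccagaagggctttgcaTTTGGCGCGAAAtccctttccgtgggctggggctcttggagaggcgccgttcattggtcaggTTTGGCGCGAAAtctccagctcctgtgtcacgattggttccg

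Nearly all members were lower in every treated culture than in medium. Of the 49 members that were bright, 49 were lower with NaCl, against 48.8% of the 8496 bright genes, and 47 with butyrate, against 50%. In all 12 fluids 47 lay under medium, against 29.5%, and 47 were lower with both NaCl and butyrate, against 29.1%. GINS4, a subunit of the GINS complex, and RPA3, the smallest subunit of the single-strand binding protein, were the exceptions in the fluids. RPA3 was 11.04 in medium and 10.58 to 11.18 in the fluids, and GINS4 was 7.18 in medium and 5.61 to 7.65 in the fluids. Over the 49 bright members the median difference from medium was -0.96 with NaCl and -1.54 with butyrate. In vessels 1 to 4 it was -0.70, -1.22, -1.24 and -1.20 with 0% fluid. It was -1.06, -1.50, -1.26 and -1.41 with 1% and -1.38, -1.60, -1.88 and -1.59 with 2%. In the median 3 of the 12 fluid arrays, all of 2%, were thus lower than the butyrate array, and 1, vessel 1 of 0%, was higher than the NaCl array.

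**Figure D1:**
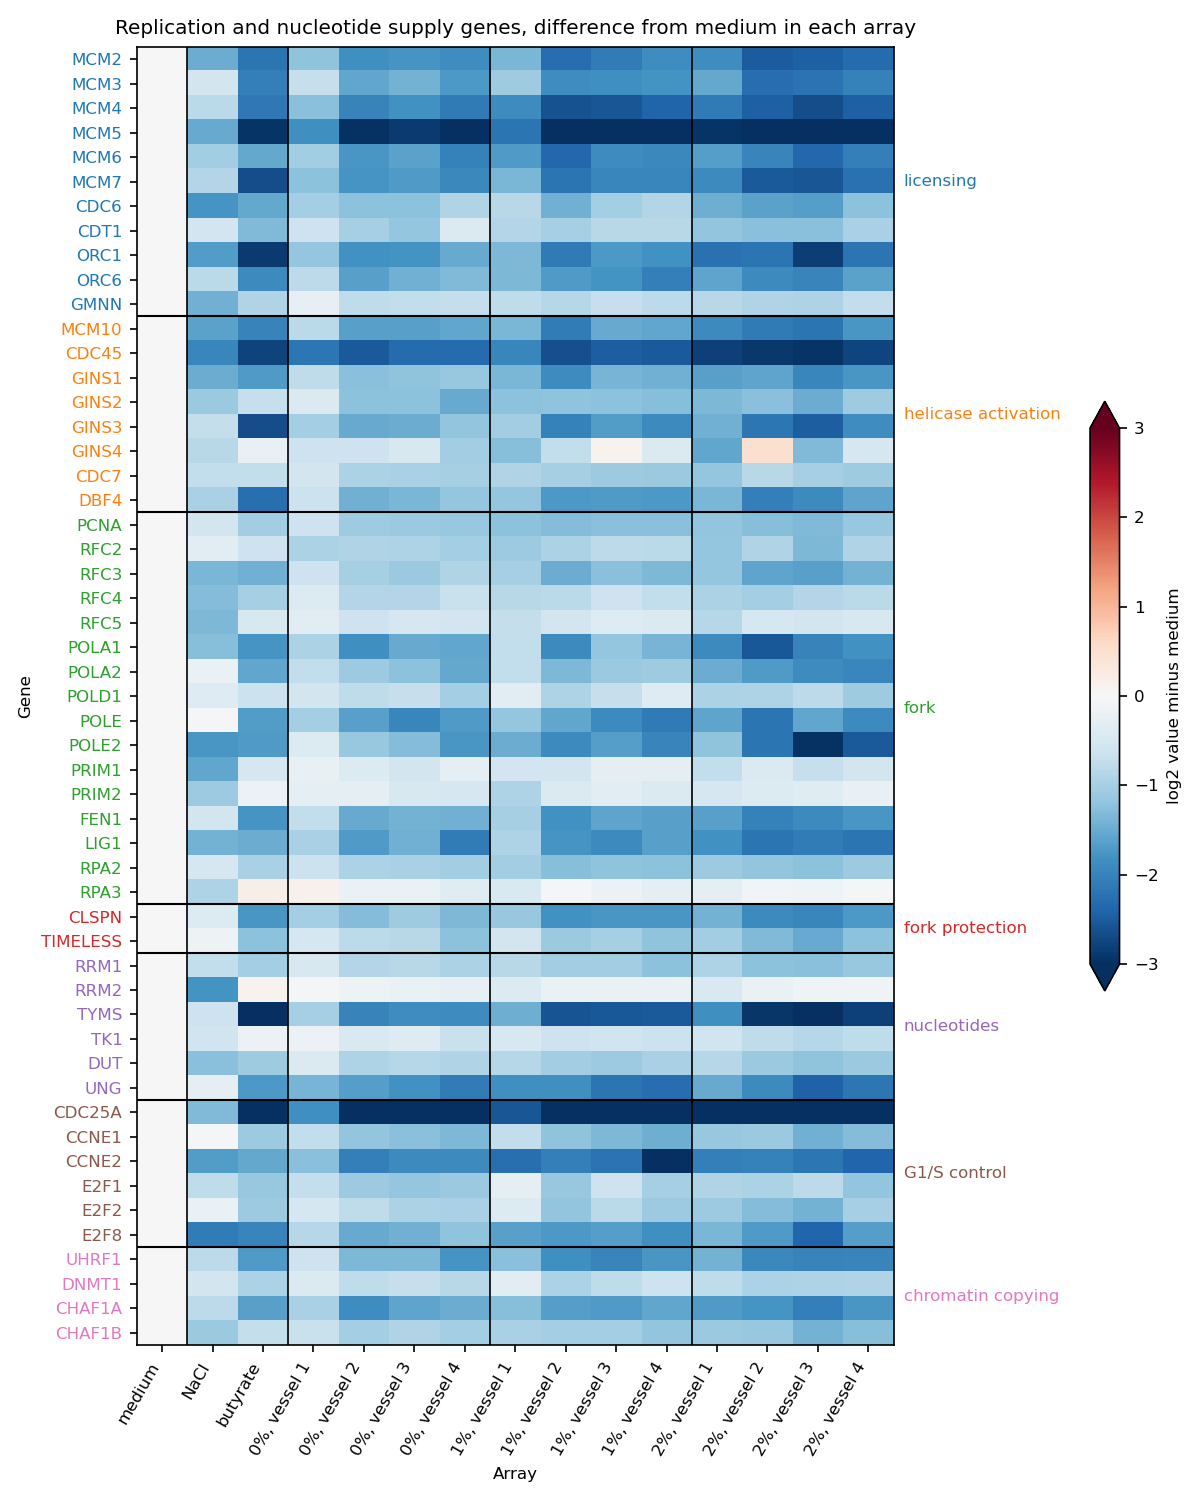
Log2 value minus medium for the 53 genes (rows, coloured and ordered by role) in the 15 arrays (columns; 1 array each), with blue for lower and red for higher than medium and the scale ending at 3 log2 units. Blue fills nearly every row; MCM5, CDC25A, CDC45 and TYMS are darkest, and RRM2 and RPA3 are near white with butyrate and in the fluids but blue with NaCl.

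With butyrate the licensing genes lay furthest below medium. There is 1 array of each, so the differences have no replicate check and no test. Of 49 members compared, 33 were at least 2-fold lower and 0 were higher, while 15.6% of the 8057 genes compared were that much lower and 15.6% higher. The members' median was -1.54, against 0.00 for all genes. Of the 11 licensing genes 10 were at least 2-fold lower (median -2.05), all but GMNN, the geminin that holds CDT1 in check. MCM5 was 9.62 in medium and 6.67 with butyrate, which is 7.69-fold lower. MCM7 was 10.40 in medium and 7.74 with butyrate, 6.30-fold lower. These are subunits of the same helicase ring, and the others, MCM2, MCM3, MCM4 and MCM6, differed by -2.21 to -1.55 on the log2 scale. ORC1, the largest subunit of the origin recognition complex, was 7.41 in medium and under the log2 limit of 5 with butyrate, so its log2 difference is -2.41 or below. CDC6 and CDT1, which load the ring, went from 10.08 to 8.54 and from 8.29 to 6.96.

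Of the 8 genes that activate the helicase, 5 were at least 2-fold lower with butyrate (median -1.85). GINS3 was 7.99 in medium and 5.33 with butyrate, and DBF4, the regulatory subunit of the CDC7 kinase, was 10.55 and 8.28. CDC45 was 7.39 in medium and under 5 with butyrate, a difference of -2.39 or below. CDC7 itself, at 8.80 and 8.06, GINS2 and GINS4 stayed within 2-fold. At the fork 7 of 15 genes were at least 2-fold lower (median -0.99), among them FEN1, the flap endonuclease of lagging strands, and POLA1 and POLA2 of the primase complex. PCNA was 12.48 in medium and 11.43 with butyrate. PRIM1 and PRIM2, the primase subunits of that same complex, differed by only -0.50 and -0.17.

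The nucleotide genes split widest. TYMS, the thymidylate synthase that makes the DNA-specific nucleotide, was 12.53 in medium and 9.43 with butyrate, 8.55-fold lower and the largest measured difference of any member apart from the bound for CDC25A. RRM2, the small subunit of ribonucleotide reductase, was 12.87 in medium and 12.98 with butyrate. RRM1, the large subunit, DUT, which removes dUTP, and UNG, the uracil glycosylase, differed by -1.03, -1.07 and -1.73, and TK1, the thymidine kinase, by -0.18. All 4 measured G1/S control genes were at least 2-fold lower (median -1.76). CDC25A, the phosphatase that activates cyclin-dependent kinase at the G1/S step, was 8.21 in medium and under 5 with butyrate, at least 9.27-fold lower. CCNE1 and CCNE2, the E cyclins, differed by -1.09 and -1.54, and E2F8, a repressor of the E2F family, by -1.97. Of the 4 chromatin copying genes, UHRF1, which brings DNA methyltransferase to new DNA, and the assembly factor CHAF1A were at least 2-fold lower, and DNMT1 (11.17 and 10.21) and CHAF1B were not. TIMELESS, a fork protection protein, differed by -1.23. Some members sit close to the 2-fold limit: RFC4 (-0.99) and RPA2 (-0.98) are just short of it and RRM1 (-1.03) and PCNA (-1.05) are just past it.

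With salt the set was lower than in medium too, in another order. NaCl against medium put 24 of 49 members at least 2-fold lower and 0 higher, against 7.67% and 8.93% of 7874 genes, with a median of -0.96 (0.02 for all genes). E2F8 had the largest difference, 8.50 in medium and 6.40 with NaCl. CDC45 was 7.39 and 5.43, and CDC6 was 10.08 and 8.30. POLE2, an accessory subunit of polymerase epsilon, was 6.74 in medium and just under log2 5 with NaCl, a difference of -1.74 or below. RRM2 was 12.87 in medium and 11.08 with NaCl, 3.44-fold lower. By role, 6 of 11 licensing genes, 4 of 8 helicase activation genes, 8 of 15 fork genes, 2 of 6 nucleotide genes, 3 of 4 G1/S genes and 1 of 4 chromatin genes were at least 2-fold lower. The members least different with NaCl were CCNE1 (6.56 in medium, 6.50 with NaCl), TIMELESS (-0.16) and POLA2 (-0.21), each of which was at least 2-fold lower with butyrate.

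Both comparisons share the medium array, so they are not independent. Set side by side, 16 of 49 members were at least 2-fold lower with both, 17 with butyrate only, 8 with NaCl only and 8 with neither. Of all genes compared, 15.6% were at least 2-fold lower with butyrate and 7.67% with NaCl. The shares of all genes in the joint classes were not counted, so the split describes the members only. Those lower with both include MCM2, MCM5, MCM6, MCM10, CDC6, CDC45, ORC1, GINS1, POLE2, RFC3 and CDC25A. Those past 2-fold with butyrate only include TYMS, MCM3, MCM4, MCM7, GINS3, DBF4, FEN1 and UNG. The 8 past 2-fold with NaCl only were RRM2, PRIM1, PRIM2, RFC4, RFC5, GINS2, GMNN and CHAF1B, which include both primase subunits. RFC4 missed the butyrate limit narrowly (-0.99), and another bright probe set of RFC5 was higher with NaCl (9.37 in medium, 9.70 with NaCl), so the place of both in this group is uncertain. Another bright probe set of CDC25A differed by -0.87 with NaCl, so its place among those lower with both depends on the probe set. An E2F word was in the promoter of 9 of 13 members lower with both and 8 of 16 lower with butyrate only that have a promoter entry. It was in 1 of 8 lower with NaCl only, the GINS2 stretch shown above, and 1 of 5 lower with neither, DNMT1. These counts are small and describe the letters.

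**Figure D2:**
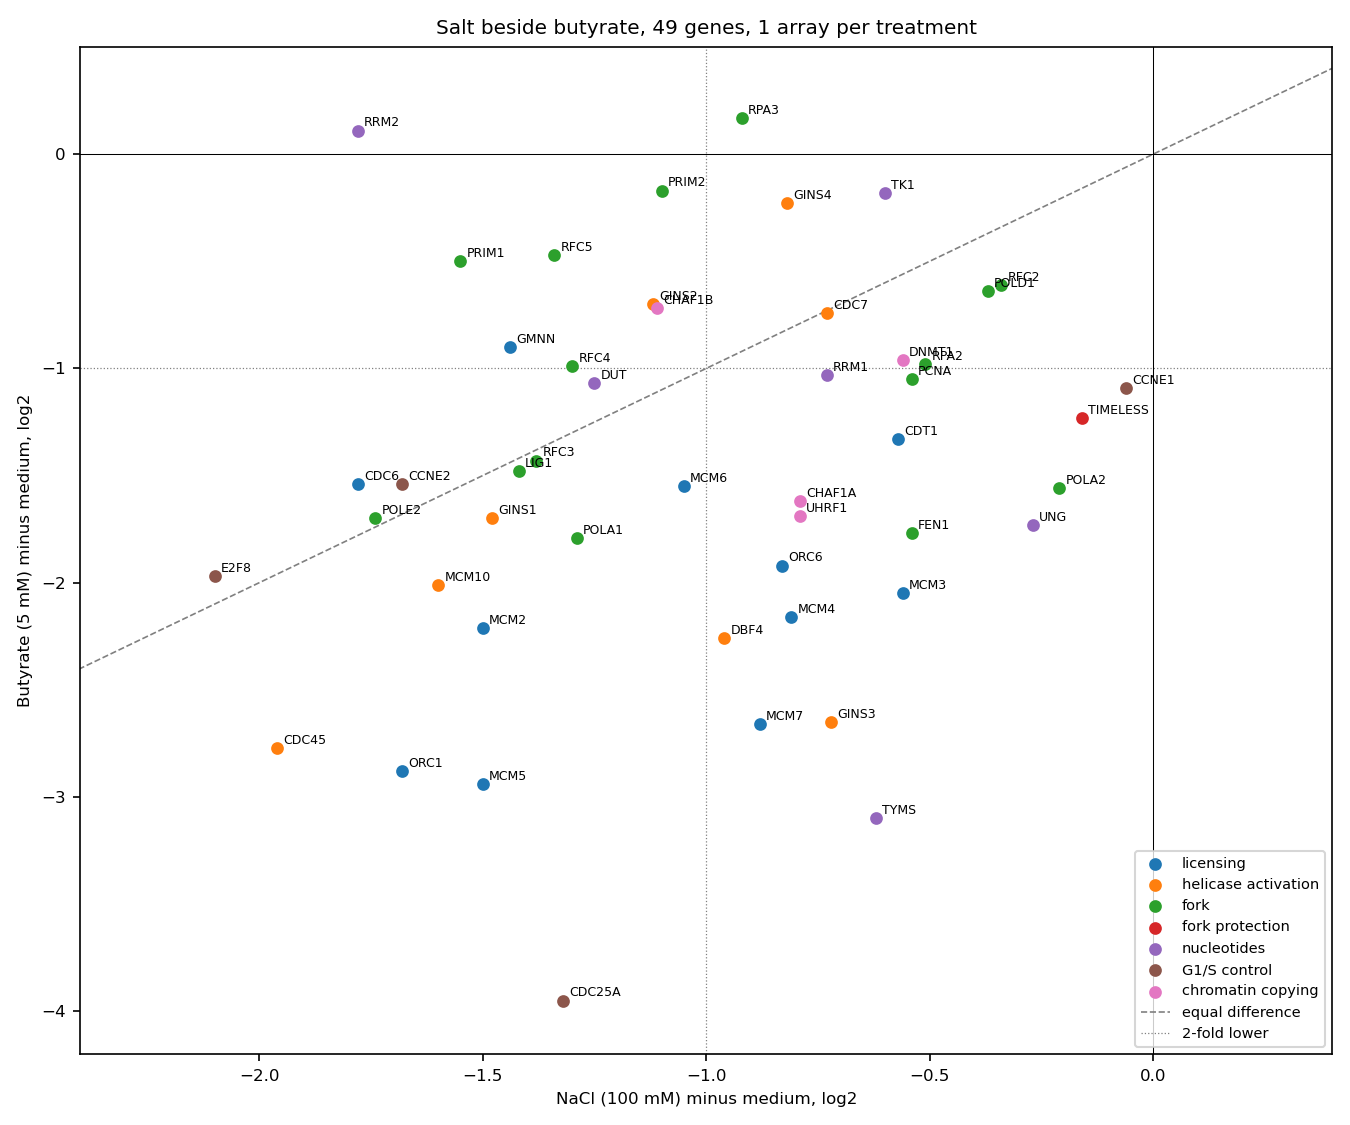
Difference from medium with NaCl (x axis, log2) and with butyrate (y axis, log2) for the 49 genes compared, 1 point per gene coloured by role, with 1 array per treatment and the medium array shared. The dashed line marks equal differences and the dotted lines 2-fold; TYMS, CDC25A, MCM7 and GINS3 lie far below the dashed line and RRM2, RPA3, PRIM1 and PRIM2 above it. Genes under log2 5 with a treatment are drawn at their measured values.

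Butyrate set directly against NaCl does not use the medium array. Here 14 of 44 members compared were at least 2-fold lower with butyrate, beside 17% of 8153 genes, and 3 were at least 2-fold higher, beside 15.9%. The members' median was -0.41 (-0.03 for all genes). TYMS was lowest against salt, at 11.91 with NaCl and 9.43 with butyrate, followed by GINS3 (-1.93), CDC25A (-1.89 or below) and MCM7 (-1.78). RRM2 was 11.08 with NaCl and 12.98 with butyrate, 3.72-fold higher. PRIM1 (1.04) and RPA3 (1.10) were the other members past 2-fold higher. Among bright members 33 of 49 were lower with butyrate than with NaCl, against 51.5% of bright genes.

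In the fluid without polydextrose most members also lay well below medium. With 0% fluid, the mean of 4 arrays against the 1 medium array, 28 of 49 members were at least 2-fold lower and 0 higher, against 4.8% and 7.81% of 7820 genes (median -1.13, and -0.01 for all genes). CDC25A was 6.36, 4.32, 4.63 and 4.50 in vessels 1 to 4, against 8.21 in medium. MCM5 was 7.77, 6.66, 6.75 and 6.19, against 9.62. All 4 arrays lay under medium for both genes, and vessel 1 lay closest to it. At least 2-fold lower were 9 of the 11 licensing genes, 6 of 8 helicase activation genes, 5 of 15 fork genes, 2 of 6 nucleotide genes, 4 of 4 G1/S genes and 2 of 4 chromatin genes. RRM2 was 12.81, 12.71, 12.68 and 12.62 in these arrays and 12.87 in medium. That is close to the butyrate array at 12.98 and far from the NaCl array at 11.08.

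Set against the salt array, the members differed in where the fluids lay. Of 49 bright members 16 were under NaCl in all 12 fluids (background 32.9%), among them TYMS, MCM3, MCM4, MCM5, MCM7, GINS3, PCNA, FEN1, POLA2, CDC25A and CCNE1. Another 9 were over NaCl in all 12 (background 32.2%): CDC6, RFC4, RFC5, PRIM1, PRIM2, RPA3, RRM2, DUT and GMNN. The first share is near the background and the second under it, so the counts by themselves say nothing of the set. Against the butyrate array, 6 of 49 bright members were over it in all 12 fluids (background 24%) and 5 of 49 under it in all 12 (background 24.5%), both under the background. Those over butyrate were MCM7, CDT1, ORC1, GINS3, DBF4 and DNMT1, and those under it were RFC2, PRIM2, RPA3, RRM2 and TK1.

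With 2% polydextrose most licensing and helicase genes fell further. Of 47 members tested, 27 fell and 0 rose with 2% against 0% fluid, where 11.2% of the 8737 genes tested fell and 9.65% rose (limma with vessel as a block, adjusted p under 0.05 by Benjamini-Hochberg). Among the 27, CDC45 and POLA1 were under log2 5 in all 4 arrays of 2% and entered the test only through 0% and 1%. Their calls rest on values under that limit and are no support for a fall. The median of the members was -0.37 and that of all genes -0.01. Without vessel 3 of 2% the count was 16, and the share of all genes called in that fit is not given here. Without the vessel block 0 members passed, and 0 of 8737 genes, with 1952 genes at an unadjusted p under 0.05. TYMS was 11.54, 10.53, 10.67 and 10.64 in vessels 1 to 4 of 0% fluid, 11.06, 9.93, 9.98 and 10.01 with 1%, and 10.68, 9.62, 9.41 and 9.74 with 2%. In each vessel the order was the same, while vessel 1 of 2% lay within the range of the 0% arrays. Its mean fell from 10.85 ± 0.47 to 9.86 ± 0.56 (SD, n = 4), a log2 change of -0.98 ± 0.08 (SE, limma adjusted p = 0.000911), and it was lower in 4 of 4 vessels.

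Of the 11 licensing genes 8 fell (median -0.48). MCM2 was 9.67, 9.04, 9.11 and 9.02 with 0% and 9.02, 8.39, 8.42 and 8.56 with 2%, a change of -0.62 ± 0.08 (SE, limma adjusted p = 0.00231). MCM3 was 9.38, 8.52, 8.65 and 8.34 with 0% and 8.54, 7.79, 7.86 and 8.04 with 2% (-0.66 ± 0.09, SE). Within each vessel the 2% array was the lower, and across vessels the ranges met at 9.02 for MCM2 and overlapped for MCM3. MCM4 (-0.62), MCM7 (-0.64), ORC1 (-0.79), ORC6 (-0.48), CDC6 (-0.40) and CDT1 (-0.36) fell as well. CDC6 was 9.06, 8.86, 8.86 and 9.18 with 0% and 8.62, 8.48, 8.42 and 8.84 with 2%, so all 4 values of 2% lay under the lowest of 0%. MCM5, MCM6 and GMNN did not pass.

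Among 8 helicase activation genes 5 fell: DBF4 (-0.58), GINS1 (-0.64), GINS3 (-0.69), MCM10 (-0.59) and CDC45 (-0.53). DBF4 was 9.91, 9.12, 9.17 and 9.40 with 0% and 9.19, 8.51, 8.65 and 8.96 with 2%. CDC45 was 5.23, 4.87, 5.09 and 5.08 with 0% and 4.59, 4.49, 4.45 and 4.64 with 2%. Its 2% values all lie under log2 5, as do those of POLA1, and held to that limit the change of CDC45 is -0.07 or below and that of POLA1 is -0.25 or below. The members' median was -0.35 with both at these bounds. Of 14 fork genes 6 fell, led by POLE2 (-1.06), which was under log2 5 in 3 of 4 arrays of 2%, with RFC3 (-0.54), FEN1 (-0.55), POLA1 (-0.61), POLA2 (-0.61) and RPA2 (-0.25). RFC3 was 8.95, 8.59, 8.47 and 8.68 with 0% and 8.41, 8.0, 7.95 and 8.17 with 2%, with no overlap. PCNA was 11.85, 11.42, 11.37 and 11.35 with 0% and 11.30, 11.21, 11.16 and 11.35 with 2%, a change of -0.24 ± 0.09 (SE) that did not pass (limma adjusted p = 0.0946).

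Among nucleotide genes RRM1 (-0.35), TK1 (-0.33) and DUT (-0.30) fell beside TYMS, and RRM2 and UNG did not pass. RRM2 was 12.81, 12.71, 12.68 and 12.62 with 0% and 12.41, 12.68, 12.74 and 12.75 with 2%, a change of -0.06 ± 0.09 (SE), lower in vessels 1 and 2 and higher in vessels 3 and 4. Of the 3 G1/S genes tested E2F8 fell (-0.53). CCNE1 (-0.12 ± 0.10, SE) and CCNE2 (-0.37 ± 0.19, SE) did not pass. CCNE2 was 7.96, 7.17, 7.30 and 7.31 with 0% and 7.18, 7.19, 7.05 and 6.84 with 2%. UHRF1 (-0.57) and CHAF1B (-0.34) of the chromatin genes fell, and TIMELESS (-0.43) fell too. DNMT1 was 10.74, 10.41, 10.48 and 10.34 with 0% and 10.40, 10.21, 10.25 and 10.27 with 2% (-0.21 ± 0.09, SE), and did not pass.

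**Figure D3:**
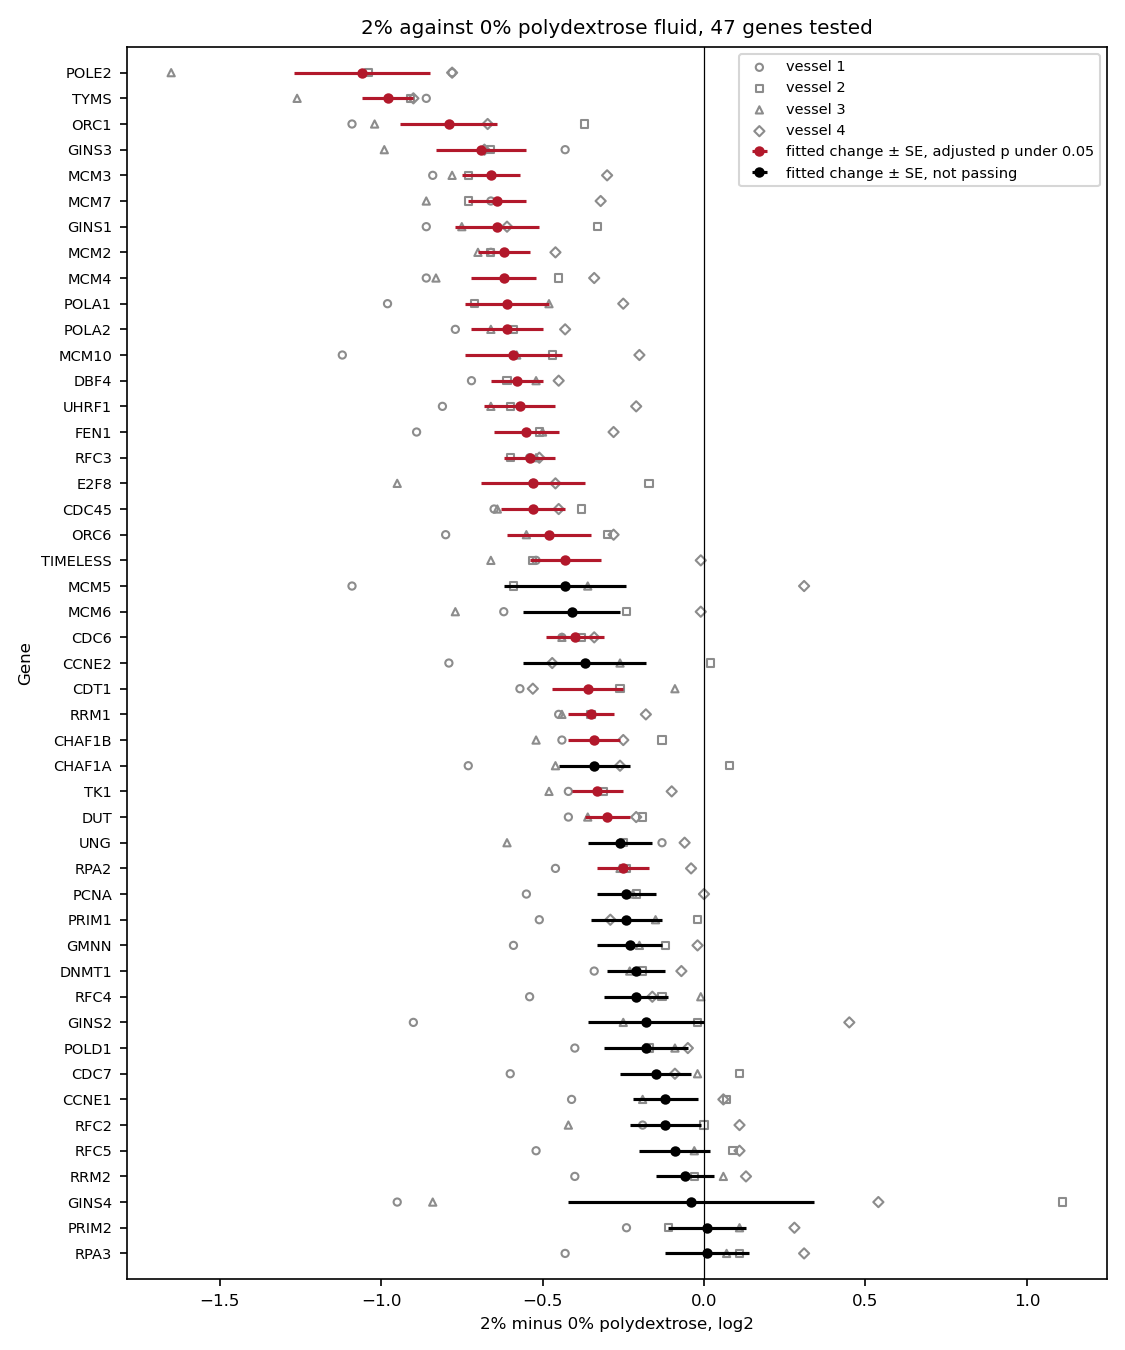
Log2 difference between 2% and 0% polydextrose fluid for the 47 genes tested, ordered by size: filled points are the fitted change with its standard error, red where the adjusted p is under 0.05, and open symbols are the 4 vessels. The 27 genes that passed lie between -1.06 and -0.25, and vessel 1 (circles) is leftmost for MCM10, FEN1 and PCNA, among others.

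The 1% fluid gave fewer calls. Here 4 of 47 members fell and 0 rose with 1% against 0%, beside 2.15% of genes that fell and 2.63% that rose (median of the members -0.16). They were TYMS (-0.60), MCM4 (-0.57), DBF4 (-0.43) and RFC3 (-0.37), with limma adjusted p from 0.0145 to 0.0333. MCM4 was 9.34, 8.60, 8.78 and 8.48 with 0% and 8.72, 7.98, 8.03 and 8.20 with 1%. The calls were 0 without vessel 2 or vessel 3 of 0%, and without vessel 3 or vessel 4 of 1%. They were also 0 without the vessel block. Between 2% and 1%, 0 of 47 members and 0 of 8737 genes (0%) passed by limma, with 19 members and 1608 genes (18.4%) at an unadjusted p under 0.05. POLA2 (-0.69 ± 0.11, SE) and POLA1 (-0.77 ± 0.13, SE) had the smallest values, each at a limma adjusted p of 0.118 and lower in 4 of 4 vessels as measured. With all 4 arrays of 2% under log2 5, the difference of POLA1 held to that limit is -0.41 or below, and that of CDC45, low in the same arrays, has no bound apart from 0. Without vessel 1 of 0%, 8 members passed (MCM2, MCM3, MCM7, CDC6, CDC45, POLA1, POLA2 and TYMS). Their differences between 2% and 1% were the same as in the main fit (POLA1 -0.77, POLA2 -0.69), so only the fitted spread had changed. The share of all genes called in that fit is not given here, so the count describes the members only.

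The first vessel stood apart from the other vessels. Against the mean of vessels 2 to 4, 28 of 47 members were higher in vessel 1 and 0 lower (limma adjusted p under 0.05), beside 19.3% of genes higher and 15.4% lower, with a median of 0.35 (0.02 for all genes). TYMS was higher by 1.03 ± 0.08 (SE, limma adjusted p = 0.000144), MCM5 by 0.86, MCM3 by 0.76, UHRF1 by 0.68 and MCM2 by 0.63. POLE2 (0.90), MCM7 (0.59) and DBF4 (0.57) were also higher. By role, 8 of 11 licensing, 4 of 8 helicase activation, 6 of 14 fork, 5 of 6 nucleotide and 3 of 4 chromatin genes were higher in vessel 1. All nucleotide genes but RRM2 were among them. Of the 49 bright members, vessel 1 held the highest value of the 4 vessels as measured for 45 with 0%, 36 with 1% and 26 with 2%, against 35.9%, 45.6% and 43.7% of bright genes. It was the highest at each concentration for 25 of them, against 19.1% of bright genes. Without vessel 1 of 1%, 16 members passed. Without vessel 1 of 0%, 20 were higher and 4 lower, and the 4 lower were RFC5 (-0.30), PRIM2 (-0.35), RPA3 (-0.25) and RRM2 (-0.28). The shares of all genes called in these fits with an array left out are not given here. In this comparison the ACTB 3′ minus 5′ signal was 0.726, 0.924 and 0.620 in vessel 1 of 0%, 1% and 2%. The other vessels gave 0.366 to 0.636, so vessel 1 of 2% lay within their range. The same signal for GAPDH was -0.056, 0.042 and -0.112 in vessel 1, against -0.112 to -0.061 in the other vessels. The part of RNA quality in the result was not tested.

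Whether the concentration acted on vessel 1 and on the other vessels alike was tested by an interaction. By limma 0 of 47 members passed, beside 0.801% of genes, with 10 members and 16.6% of genes at an unadjusted p under 0.05. The slope on concentration per 1% polydextrose was -0.30 in vessel 1 and 0.00 in the other vessels for CDC7, a difference of -0.30 ± 0.08 (SE, limma adjusted p = 0.116). RFC5 (-0.29), GINS2 (-0.48), RRM2 (-0.23), MCM10 (-0.35) and FEN1 (-0.23) followed. For RRM2 the slope was -0.20 in vessel 1 and 0.03 in the others. Without vessel 1 of 2%, PRIM2 and RPA3 passed, and the share of all genes called in that fit is not given here.

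A total of 6 members had too little signal in the fluids to be tested: POLE, the catalytic subunit of polymerase epsilon, LIG1, the ligase of lagging strands, CDC25A, the activators E2F1 and E2F2, and the checkpoint adaptor CLSPN. E2F1 was 5.02 in medium, 4.25 with NaCl, 3.88 with butyrate and 3.87 to 4.76 in the fluids. CDC25A was 5.65, 3.85, 3.59 and 3.28 in vessels 1 to 4 with 1% and 4.15, 2.87, 2.81 and 3.62 with 2%. All of the 2% values lie under log2 5 and have no order among themselves. In medium these 6 genes ranged from 4.59 for E2F2 to 8.21 for CDC25A. As measured all 6 were lower with butyrate and with NaCl than in medium. E2F2 and CLSPN were under log2 5 in all 15 arrays, so their direction cannot be read. Held to that limit, E2F1 differed by -0.02 or below with each treatment, and POLE was 5.63 in medium and 5.59 with NaCl.

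Other probe sets of the same genes gave mostly the same picture. Further bright probe sets, 23 in all, exist for 18 members. All 23 had the sign of the reported probe set with butyrate and 22 with NaCl. The exception was RFC5, which was 9.88 in medium and 8.54 with NaCl by the probe set reported but 9.37 and 9.70 by another, so its salt difference depends on the probe set. The same sign does not mean the same side of the 2-fold limit. By another bright probe set CDC25A differed by -0.87 with NaCl, CHAF1A by -0.94 with butyrate and RFC5 by -1.40 with butyrate. For these the 2-fold class depends on the probe set. The other probe set of TYMS differed by -4.10 with butyrate and by -1.53 between 2% and 0%. For RRM2 the other probe set differed by 0.31 with butyrate and -1.10 with NaCl, as the reported one did in sign. The 3 further bright probe sets of MCM4 differed by -0.92, -1.41 and -0.92 between 2% and 0%, beyond the reported -0.62.

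Genes of the same pathways outside the 53 were listed as well. For reading their counts, 15.6% of all genes compared were at least 2-fold lower with butyrate and 15.6% higher. With NaCl 7.67% were lower and 8.93% higher, and with 2% against 0% fluid 11.2% fell and 9.65% rose. Of 27 other replication genes compared, 13 were at least 2-fold lower with butyrate and 1 higher, POLD4, a polymerase delta subunit (2.03), and 9 were lower with NaCl and 0 higher. CDCA7 (-2.84) and HELLS (-2.75), partners in chromatin remodelling, had large salt differences. With 2% against 0%, 11 of 25 fell, among them POLE3 (-0.59), CDCA7 (-0.66) and RNASEH2A (-0.57), and 1 rose, the origin subunit ORC4 (0.29). Of 19 other nucleotide synthesis genes, 13 were at least 2-fold lower with butyrate and 1 higher, SAMHD1, which breaks down deoxynucleotides (1.29). With NaCl 2 were lower, near the 7.67% of all genes, and 0 higher. The 2 were CAD (-1.27) and GART (-1.11), which start pyrimidine synthesis and act in purine synthesis. CTPS1, the CTP synthase, differed by -2.31 with butyrate and fell by 0.72 with 2% against 0%. In that comparison 12 of 19 fell and 1 rose, RRM2B, the p53-induced small subunit of ribonucleotide reductase (0.31).

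Of 23 other G1/S control genes, 11 were at least 2-fold lower with butyrate and 4 higher. The share higher was near the 15.6% of all genes. CCNA2, the S phase cyclin, was 10.45 in medium and 7.15 with butyrate, and MYC was 11.56 and 8.94. The 4 higher were the kinase inhibitors CDKN2B (2.17) and CDKN1A (1.70) and the cyclins CCND3 (1.44) and CCND2 (at least 1.04). CDKN1A was 8.92 in medium, 10.62 with butyrate and 7.79 with NaCl, so it lay on opposite sides of medium in these 2 arrays. With NaCl 5 of 21 were at least 2-fold lower, E2F7 and RBL1 among them, and 1 higher, the E2F partner TFDP2 (1.58). With 2% against 0%, 8 of 23 fell, including CCNA2 (-1.07), E2F7 (-0.74) and RBL1 (-0.75). Another 2 rose, near the 9.65% of all genes: CDKN1A (0.48) and CCND2 (0.86, with all 4 arrays of 0% under log2 5). CCND2 entered the test only through the 1% and 2% arrays, so its call is no support for a rise and its size is not measured. In vessel 1 against vessels 2 to 4, 13 of 25 other replication, 14 of 19 nucleotide and 11 of 23 G1/S genes were higher. In the same order 1, 1 and 4 were lower, beside 19.3% of all genes higher and 15.4% lower. ORC4, POLD4, RRM2B, SAMHD1, TFDP2, CCND2, CCND3, CDKN1A and CDKN2B are named here by their direction, after their values were seen.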

How the data were processed

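Total RNA from 15 cultures was measured on 1 Affymetrix array each. The deposited table holds log2 values for 54675 probe sets, and per the submitters' processing notes the authors used GCRMA, a method that turns probe intensities into 1 value per probe set. The log2 scale was inferred from the range (0.173 to 14.46). The GCRMA version is not given in the sources used here. All arrays have nearly the same distribution of values, so a shift common to most genes would not be seen. Gene symbols come from the platform annotation (41097 probe sets with 1 symbol, 1801 with several, 11777 with none), and a check by gene identifier changed 0. Each gene is represented by its brightest probe set on average.

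For the 12 fluid arrays limma 3.58.1 (R 4.3.3) was used, taking concentration and vessel as factors, on the 8737 genes that reached log2 5 in 4 or more arrays. P-values are two-sided, adjusted by Benjamini-Hochberg, with a threshold of 0.05. The fit leaves 6 residual degrees of freedom, and the median residual SD was 0.147. The fit was tested on simulated data. Comparisons with 1 array used genes of at least log2 6 on the brighter side and counted from a log2 difference of 1, and a side under 5 in all arrays was set to 5, or to its own value where higher, as a bound. The number of arrays limits the precision.

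The members, lists and contrasts were chosen with earlier results of these data known. The rule for named members took PCNA, MCM2, CDC6, CDT1, CDC45, TYMS, RRM2, E2F1, CCNE1, CCNE2 and DNMT1. It also took the 8 members with the largest butyrate difference, the 5 with the largest NaCl difference, and up to 6 with the smallest p in each fit. Of each list of other genes up to 4 are named, apart from those named by their direction. Members are given by array where a result turns on them and otherwise by their difference or in counts, and those singled out beyond this rule were chosen after their values were seen. Alternatives changed the filter, the gene's probe set, centring, quantile normalization, the prior, the block and the arrays used. Promoter sequences are RefSeq's.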

Additional observations from a re-analysis of the deposited data

Results flagged for a closer look

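Single arrays that lay apart from the other 3 of their concentration were looked for among the 31 named members, over 93 groups of 4 arrays (a gap to the nearest array, over the whole range, above Dixon's critical value). There were 13, and 12 of them are arrays of vessel 1. Chance alone gives about 1 in 20 groups, but the count cannot be read against that rate: the groups share their arrays, and 6 members were named for their small p between vessel 1 and the other vessels and hold 6 of the 12. With 0% fluid, vessel 1 was high for MCM2 (9.67, others 9.02 to 9.11), MCM10 (8.03, others 7.19 to 7.28), PCNA (11.85, others 11.35 to 11.42) and FEN1 (10.17, others 9.38 to 9.49). In the same array TYMS was 11.54 (others 10.53 to 10.67), CDC25A was 6.36 (others 4.32 to 4.63, under the log2 limit of 5) and CDC7 was 8.25 (others 7.81 to 7.86). With 1% fluid, vessel 1 was high for MCM3 (9.0, others 8.20 to 8.28), TYMS (11.06, others 9.93 to 10.01) and DBF4 (9.39, others 8.83 to 8.84). RRM2 went the other way there, at 12.45 in vessel 1 against 12.68 in each of the other vessels. With 2% fluid, vessel 1 was high for UHRF1 (9.38, others 8.80 to 8.86). ORC1 was low in vessel 3 (4.59, others 5.18 to 5.23), but this value is under the log2 limit of 5, so its distance is not measured.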

How the results depend on the processing

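The vessel number names a compartment of the simulator and was in the fit as a block. Arrays of the same vessel had deviations that correlated above 0.1 in 10 of 12 pairs (median r 0.376, range 0.024 to 0.781). Pairs of vessel 1 with another vessel ran from -0.655 to -0.118. Pairs of different vessels among vessels 2 to 4 ran from -0.11 to 0.545, and same-vessel pairs of these vessels lay within that range (0.024, 0.062 and 0.25 for vessel 3). The correlations thus set vessel 1 apart and do not show pairing by number among vessels 2 to 4. Without the replicate block 0 members passed for 2% against 0%, 0 for 1% against 0% and 0 for 2% against 1%, with 1952, 1125 and 697 of 8737 genes at an unadjusted p under 0.05 by limma and smallest adjusted p of the members of 0.214, 0.367 and 0.607. For 1% against 0%, 2 members passed with the mean of probe sets and 0 with only the 8 arrays compared. With butyrate set against NaCl as the control, 17 members were past 2-fold. A fit without vessel 1 of each concentration was added after the data were seen. For 2% against 1% it called 1 member (POLA1, -0.63, with its 2% arrays under log2 5), beside 141 of 8737 genes. For 2% against 0% it called 23 members, beside 3205 genes, and for 1% against 0% 4 members, beside 1136 genes. Leaving out each array in turn gave 16 to 26 members for 2% against 0% (16 without vessel 3 of 2%), 0 to 5 for 1% against 0%, 0 to 8 for 2% against 1%, 16 to 27 for vessel 1 against the other vessels and 0 to 2 for the interaction. The count for 1% against 0% was 1 without vessel 1 of 1% and 2 without vessel 2 of 1% or of 2%. The 0% fluid against medium gave 26 to 29. Counts of all genes called with 1 array left out are not given here, so these ranges describe the members only. The change of RRM2 for 2% against 0% was -0.11 to 0.04 when 1 array was left out, with 0.04 without vessel 1 of 0% and 0.01 without vessel 1 of 2%, and 0.05 without vessel 1 of each concentration. The cause was not tested. Over all members and the 5 fitted comparisons, 142 of 4593 values under an alternative had the opposite sign, of which 0 were of the 59 called values and 0 passed under the alternative. For 2% against 0%, 11 members passed in all alternatives but the one without the block: TYMS, MCM2, MCM3, MCM4, MCM7, RFC3, DBF4, FEN1, GINS1, GINS3 and UHRF1. Low signal limits POLE, E2F1, E2F2, CLSPN, LIG1 and CDC25A, and the single arrays of medium, NaCl and butyrate allow no test.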
